A study of Danio rerio with 4 samples.

Results

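The granins are acidic proteins of the regulated secretory pathway, and their mRNA was followed here through 4 gene symbols, chga, scg2b, scg3 and scg5, in pancreatic β-cells of adult zebrafish. These symbols named 5 of the 22044 genes in the table of normalised counts, because scg5 was carried by 2 Ensembl IDs, 1 on chromosome 19 and 1 on chromosome 20. All 5 passed the filter on low values. Islets of fish aged 3 months were dissociated and their β-cells sorted by flow cytometry, and 2 libraries were made from WT fish and 2 from Tg(ins:il1b) fish. Every fish carried a β-cell reporter, which the labels call Tg(ins:mKO) and the methods Tg(ins:nlsRenilla-mKO2). The Tg(ins:il1b) fish, labelled Tg(ins:IL1B), also carried a truncated, FLAG-tagged zebrafish il1b under the insulin promoter, with mCherry under the cryaa promoter as an eye marker. All of them descend from a single founder. How many fish went into a library is not stated in the sources used here. The p-values therefore measure the spread between these libraries, which may be technical.

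In the dense-core granule, granins aggregate with prohormone at the low pH and high calcium of the trans-Golgi network, which helps to form the granule and to load it. They are also prohormones themselves, since convertases cut them at pairs of basic residues into peptides that are released with the hormone. Because islet endocrine cells of all types and many neurons make such granules, granins are general endocrine markers and not markers of β-cells. These roles are best known from mammals.

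Library depth, library make-up and the markers of cell identity were examined first. The libraries held 35073715 and 35637508 reads in genes for WT and 28524617 and 28702122 for Tg(ins:il1b). A normalised count is the read count of a gene divided by a factor of its library. Reads assigned to il1b, which include those of the transgene, came to 11 and 1.9 normalised counts for WT and 587911 and 423851 for Tg(ins:il1b). The gene ins was abundant in every library, between 2930996 and 8439952 normalised counts, and of the other β-cell markers pdx1, slc2a2, mnx1, nkx2.2a and pcsk1 were present in all 4, whereas mafaa had at most 8.7. Presence does not mean equal levels. For pdx1 there were 82009 and 86539.5 in WT against 41047 and 59138.5 in Tg(ins:il1b) (limma adjusted p = 0.225). In the other direction, nkx2.2a had 3711 and 4423 against 6452 and 6850 (limma adjusted p = 0.164). The β-cell hormone gene ucn3l had 5899 and 9440.1 for WT against 272 and 1949 for Tg(ins:il1b) (limma adjusted p = 0.137). Tg(ins:il1b) replicate 2 stood apart in hormones of other islet cells, with 1076220 normalised counts of the somatostatin gene sst1.1 against 2059 to 92133 in the other libraries. Results for the granins are therefore also given without it. Across the table, 302 of 18504 tested genes passed limma, a linear model on log2(value + 1) with p-values adjusted over all tested genes by Benjamini-Hochberg, at an adjusted p under 0.05. This is 1.63% of the genes tested.

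Of the 5 granin genes, 0 passed limma or edgeR, where edgeR called 1.28% of all genes, 0.903% as higher and 0.373% as lower in Tg(ins:il1b). In limma 1.1% were called higher and 0.53% lower. A single granin, chga, passed DESeq2, which called 6.68% of its genes, 4.24% as higher and 2.45% as lower. At an unadjusted limma p under 0.05 there was also 1, again chga, beside 14.4% of all tested genes, 7.95% higher and 6.45% lower, so this count of 1 in 5 is no result about the granins. The direction differed between members. The Tg(ins:il1b) libraries lay above both WT libraries for chga, below both for scg3 and for each scg5 gene, and across them for scg2b. Groups that do not overlap are common with 2 libraries a side, at 44.4% of all tested genes, 22.3% with higher and 22.1% with lower values in Tg(ins:il1b), so the 4 of 5 granins without overlap are no result by themselves. The median log2 fold change of the 5 was -0.26, beside -0.0094 over all tested genes. This median is the value of scg5 on chromosome 20, and each scg5 gene counts as a separate member in it.

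**Figure D1:**
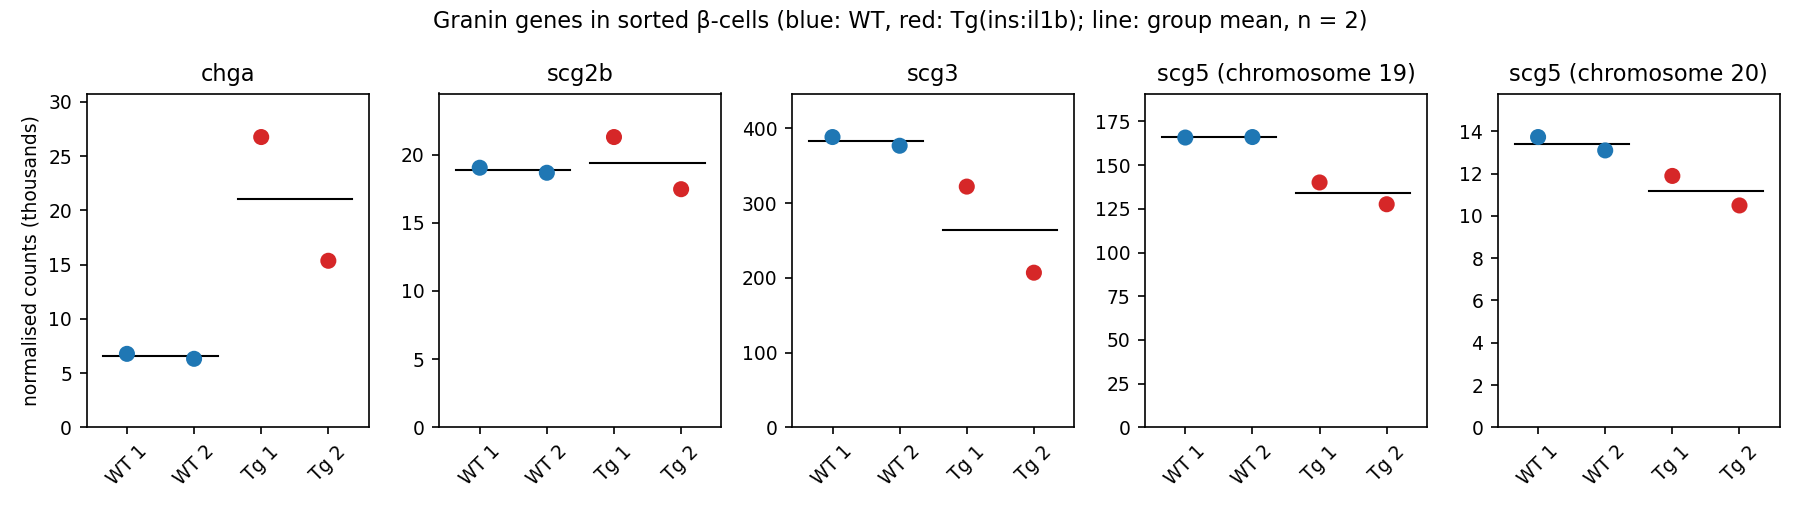
Normalised counts, in units of 1000, of the 5 granin genes in each library; every panel starts at 0, blue points are WT, red points are Tg(ins:il1b) and lines are means of 2 libraries. chga is higher in both Tg(ins:il1b) libraries, scg2b stays between 17462 and 21287, and scg3 and both scg5 genes are lower, with Tg(ins:il1b) replicate 2 the lowest for each of these 3.

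Chromogranin A, encoded by chga, is the founding granin and the source of regulatory peptides such as vasostatin. The gene lies on chromosome 20 of GRCz10, on the plus strand from 27121111 to 27146901. The WT libraries had 6771 and 6313 normalised counts of chga, and the Tg(ins:il1b) libraries 26757 and 15351. The WT libraries lay close together, while the Tg(ins:il1b) libraries differed from each other by more than the whole WT level and were both above it. The means were 6542 ± 323 and 21054 ± 8065 (SD, n = 2), so the Tg(ins:il1b) mean was 3.22 times the WT mean, and the ratio of single libraries ran from 2.27 to 4.24. The log2 fold change was 1.63 (SE 0.29, 95% interval 0.94 to 2.33) with a limma adjusted p of 0.0554, just above the threshold. Its unadjusted p ranked 349 of 18504, beyond the 302 that were called. The adjusted p was 0.063 in edgeR, 3.74e-05 in DESeq2 and 0.224 in limma without its variance trend.

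The call on chga thus depended on the test. DESeq2, in which chga passed, called 1245 genes over the whole table. The paper reports an equal number of differentially expressed genes, but its text names neither the test behind them nor chga. Over 19 other settings the log2 fold change of chga lay between 1.23 and 2.04, always positive. In limma it was 2.03 without Tg(ins:il1b) replicate 2 and 1.23 without Tg(ins:il1b) replicate 1. Leaving out WT replicate 1 gave 1.68, and leaving out WT replicate 2 gave 1.58. These limma fits leave 1 residual degree of freedom and called almost no gene, so only their effect sizes are given.

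Hormones of other endocrine cells are given beside chga because α-, δ- and ε-cells make granins too. The glucagon gene gcga rose from 7690.1 and 3665 normalised counts in the WT libraries to 122372 and 383327, or by 5.35 in log2 (SE 0.58, limma adjusted p = 0.0184). The ghrelin gene ghrl rose from 40.4 and 8.7 to 11636 and 97001, by 10.71 in log2 (SE 1.06, limma adjusted p = 0.0175). The somatostatin gene sst1.1 overlapped between genotypes, with 92133 and 2059 for WT against 45219 and 1076220, and did not pass (limma adjusted p = 0.437). All 3 were highest in Tg(ins:il1b) replicate 2, whereas chga was highest in Tg(ins:il1b) replicate 1. The second glucagon gene gcgb, named after its values were seen, was also highest in Tg(ins:il1b) replicate 1. It had 16455 and 29079 for WT against 76536 and 56798 (limma adjusted p = 0.0817).

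**Figure D2:**
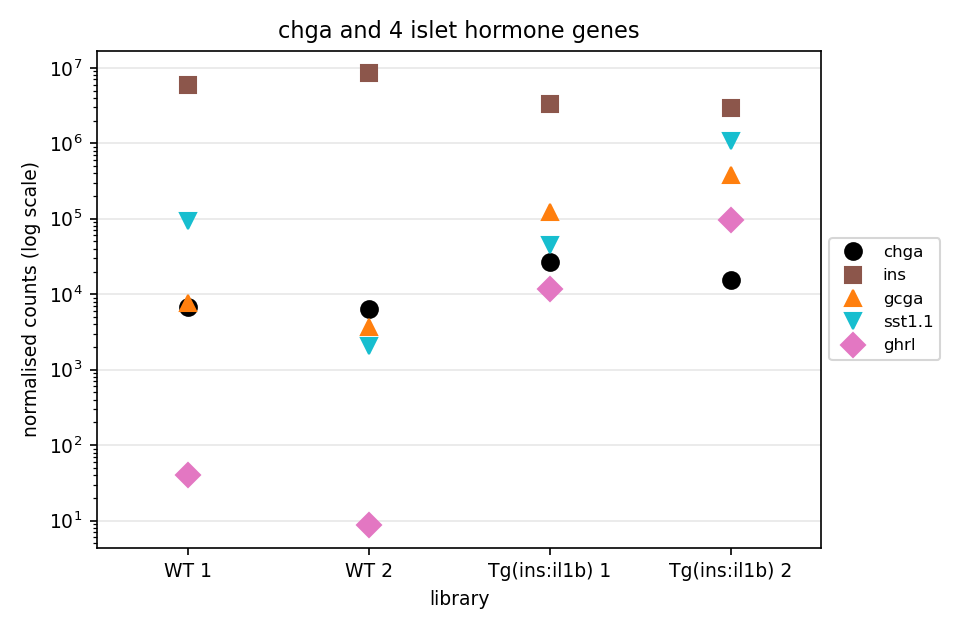
Normalised counts on a log axis of chga and of the hormone genes ins, gcga, sst1.1 and ghrl in each of the 4 libraries; genes differ in length, so only libraries are compared within a gene. chga is highest in Tg(ins:il1b) replicate 1 at 26757, while gcga, sst1.1 and ghrl are highest in Tg(ins:il1b) replicate 2. The second glucagon gene gcgb, not drawn, is highest in Tg(ins:il1b) replicate 1.

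Markers of other cells were counted as whole lists. Of 4 tested α-cell markers 1, gcga, rose, and the summed level of the list was 24426 to 32948 normalised counts in WT and 199068 to 440509 in Tg(ins:il1b), with arxa and mafba at 0 in a WT library. At an unadjusted p under 0.05, which 7.95% of all tested genes passed as higher and 6.45% as lower, 3 of the 4 were higher and 1 was lower, the transthyretin gene ttr at a log2 fold change of -1.05 (limma adjusted p = 0.336). The higher marker beside gcga and gcgb was arxa or mafba. With 0 in a WT library, it needed a Tg(ins:il1b) library to pass the filter on low values. Of 7 markers of δ-cells and other endocrine cells 1, ghrl, rose, with sums of 2320.4 to 95707 and 59898 to 1352586 and no marker at 0, and 5 were higher at an unadjusted p under 0.05. DESeq2 called 3 higher in each of these lists, where it called 4.24% of its genes higher. In the second list ghrl and sst2 reached 10 normalised counts in only 1 WT library. They too needed a Tg(ins:il1b) library to be tested. Of 10 leukocyte markers 0 passed limma or edgeR, 1 passed DESeq2 and 3 were higher at an unadjusted p under 0.05, with sums of 3756 to 16636 and 18572 to 54217, and with lcp1 and mpeg1.1 at 0 in a library of each genotype and mpeg1.2, mfap4 and mpx at 0 in WT replicate 2. Any leukocyte marker at 0 in a WT library likewise needed a Tg(ins:il1b) library to be tested. Of 10 duct markers 1, zgc:77517, rose, with 3 higher in DESeq2, 6 higher at an unadjusted p under 0.05 and sums of 11073 to 18437 and 18885 to 33395, and of 13 acinar markers 0 passed limma, edgeR or DESeq2, with 1 lower at an unadjusted p under 0.05 and sums of 1182 to 6679 and 2033 to 3631. In limma, edgeR and DESeq2 0 of 6 endothelial and stromal markers and 0 of 12 housekeeping genes passed, with 0 and 1 at an unadjusted p under 0.05. The part of these cells in the chga values was not tested. In sorted bulk RNA, more cells of a type and more RNA per cell cannot be told apart.

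Secretogranin II, made by scg2b, is the precursor of secretoneurin and, like chromogranin A, a soluble cargo of the granule core. The gene lies on chromosome 2, plus strand, from 47727833 to 47731033. Its normalised counts were 19037 and 18667 for the WT libraries and 21287 and 17462 for the Tg(ins:il1b) libraries, so the WT libraries lay between the Tg(ins:il1b) libraries. The log2 fold change was 0.03 (SE 0.20, limma adjusted p = 0.971), and its 95% interval ran from -0.45 to 0.51, which leaves room for changes smaller than these bounds in either direction. The sign followed the libraries kept, at 0.18 without Tg(ins:il1b) replicate 2 and -0.11 without replicate 1.

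Secretogranin III, made by scg3, binds cholesterol-rich granule membrane and, in mammals, chromogranin A and carboxypeptidase E, and so links the aggregate to the membrane. The gene lies on chromosome 18, minus strand, from 39453581 to 39492047. In the WT libraries scg3 had 388568 and 376912 normalised counts, against 322228 and 206975 in the Tg(ins:il1b) libraries. Both Tg(ins:il1b) values were below both WT values, at 0.53 to 0.85 times a WT library, with means of 382740 ± 8242 and 264601 ± 81496 (SD, n = 2). The log2 fold change was -0.57 (SE 0.31, 95% interval -1.32 to 0.18), and adjusted p-values were 0.481 (limma) and 0.443 (DESeq2). Its size moved with the library left out, to -0.25 without Tg(ins:il1b) replicate 2 and to -0.89 without replicate 1.

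The neuroendocrine protein 7B2, made by scg5, is the chaperone that keeps prohormone convertase 2 from acting before it reaches the granule. The gene on chromosome 19 lies on the minus strand from 47963035 to 47966205, and the gene on chromosome 20 on the minus strand from 29568927 to 29572057. Both IDs carry the same name in the table and in the current list of Ensembl symbols, and RefSeq's GRCz12tu annotation lists 1 gene called scg5. How the authors assigned reads that match both copies is not stated in the sources used here, so their separate levels are uncertain. No other gene in the table overlaps any of the 5 granin genes on either strand.

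For the chromosome 19 copy the WT libraries had 165816 and 166105 normalised counts and the Tg(ins:il1b) libraries 140111 and 127641. The WT libraries were nearly equal and the Tg(ins:il1b) libraries were 0.77 to 0.84 times a WT library, yet the log2 fold change of -0.31 did not pass (SE 0.23, 95% interval -0.86 to 0.24, limma adjusted p = 0.621). For the chromosome 20 copy these were 13729.8 and 13097 against 11890.3 and 10494, again without overlap, and the log2 fold change was -0.26 (SE 0.19, 95% interval -0.71 to 0.19, limma adjusted p = 0.607). The ratio of reads between the copies overlapped between genotypes, at 12.1 and 12.7 in WT, against 11.8 and 12.2 in Tg(ins:il1b). Without Tg(ins:il1b) replicate 2 the log2 fold changes were -0.24 and -0.17, and DESeq2 and edgeR called neither copy.

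**Figure D3:**
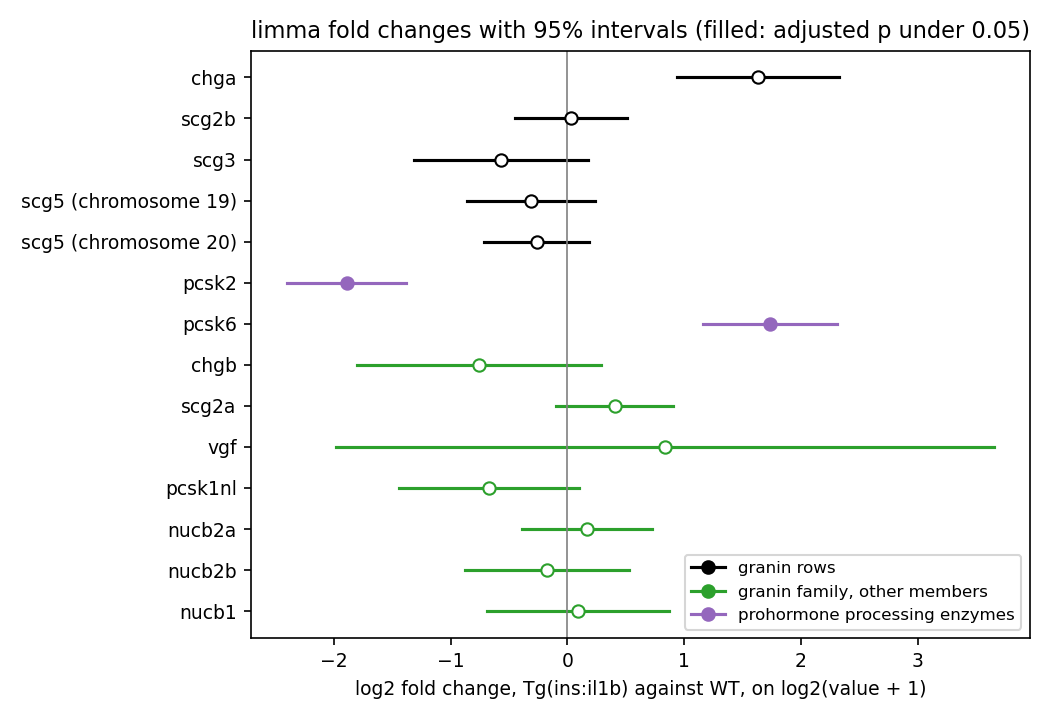
Points are log2 fold changes of Tg(ins:il1b) against WT on the log2(value + 1) scale, and lines are 95% limma intervals. The 5 granin genes are black and the called convertase genes purple. Other granin family genes, listed together with the nucleobindin genes, are green. Filled points have an adjusted p under 0.05. The interval of chga, 0.94 to 2.33, lies above 0 although its adjusted p is 0.0554, and the intervals of the other 4 granin genes cross 0.

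Convertase 2, the client of 7B2, cuts prohormones such as proglucagon. Its gene pcsk2 fell from 15239 and 11639.8 normalised counts in the WT libraries to 3768 and 3419.6, with a log2 fold change of -1.89 (SE 0.21, limma adjusted p = 0.0186). For each read of scg5 on chromosome 19 there were 0.0919 and 0.0701 reads of pcsk2 in WT, against 0.0269 and 0.0268 in Tg(ins:il1b). This ratio within a library does not depend on the scaling of that library. The groups did not overlap, but the share of other gene pairs without overlap was not computed. With 2 libraries against 2, an exact permutation test cannot give a two-sided p below 0.333, so ratios are given as values.

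Ratios between granins within a library were compared next. The reads of chga per read of scg2b were 0.356 and 0.338 in WT, against 1.26 and 0.879 in Tg(ins:il1b). The reads of chga per read of scg3, its membrane partner, were 0.0174 and 0.0167 in WT, against 0.083 and 0.0742 in Tg(ins:il1b), so the Tg(ins:il1b) libraries, which differed widely in chga alone, were close in this ratio. The reads of scg3 per read of scg2b were 20.4 and 20.2 in WT, against 15.1 and 11.9 in Tg(ins:il1b). For none of these 3 ratios did the genotypes overlap, but the third is the first divided by the second. The share of other gene pairs without overlap was not computed, so this is no result by itself. The reads of scg3 per read of scg5 on chromosome 19 did overlap, at 2.34 and 2.27 in WT against 2.3 and 1.62 in Tg(ins:il1b).

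**Figure D4:**
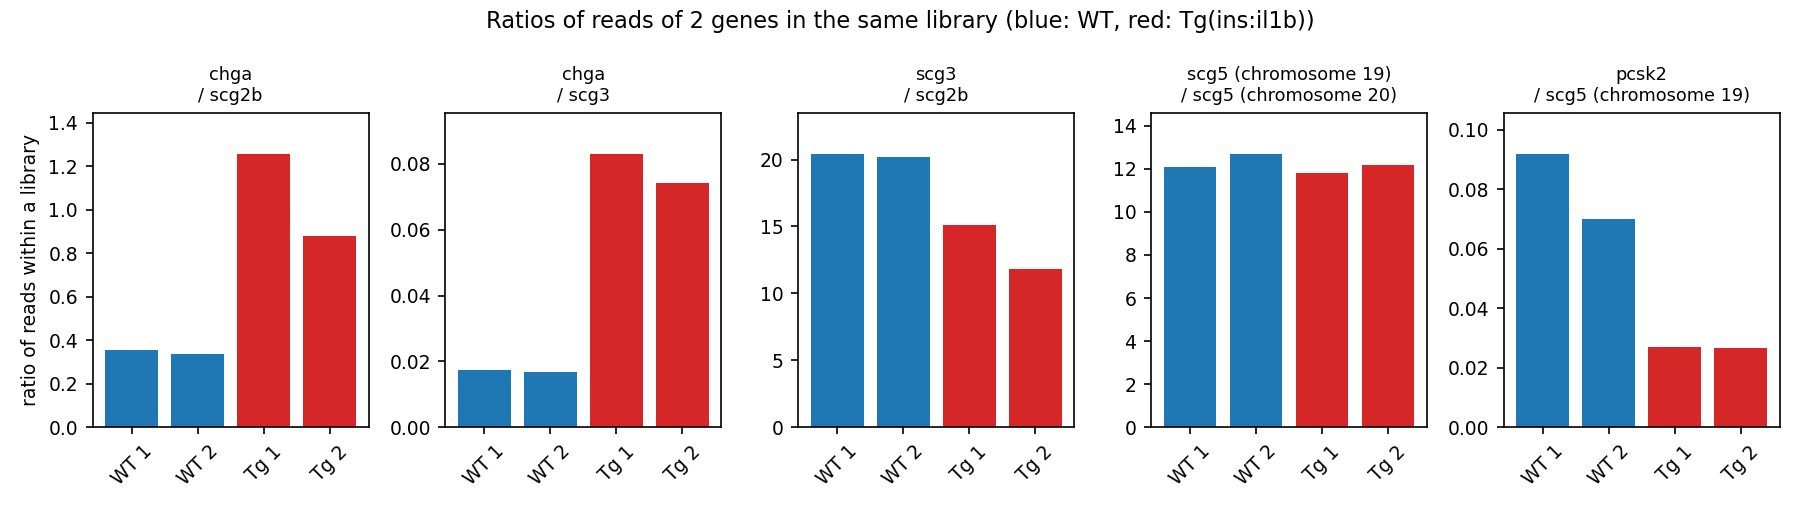
Ratios of reads between 2 genes of the same library, which do not depend on library scaling; axes start at 0, blue bars are WT and red bars are Tg(ins:il1b), 1 bar a library. chga per scg2b and chga per scg3 are higher in Tg(ins:il1b), pcsk2 per scg5 is lower, and the ratio of the scg5 copies stays between 11.8 and 12.7.

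Measured against insulin, each of the 5 granin genes was higher in Tg(ins:il1b), without overlap, as were 76.1% of all tested genes, so this is no result about the granins. The insulin gene ins itself had 5974287 and 8439952 normalised counts with WT against 3359299 and 2930996 (log2 fold change -1.18, SE 0.46, limma adjusted p = 0.316). Its adjusted p was 0.0677 in edgeR and 0.00125 in DESeq2, which called it lower. Per 1000 reads of ins there were 1.13 and 0.748 reads of chga in WT, against 7.97 and 5.24 in Tg(ins:il1b). For scg3 there were 65.04 and 44.7 in WT, against 95.9 and 70.6 in Tg(ins:il1b), and for scg5 on chromosome 19 there were 27.8 and 19.7 against 41.7 and 43.5. Together the 5 granins took 1.84% and 1.69% of all WT reads and 1.81% and 1.23% of those of Tg(ins:il1b), and Wilson 95% intervals, which cover counting error only, ran from 1.228 to 1.236% for the lowest and 1.839 to 1.848% for the highest. Only Tg(ins:il1b) replicate 2 lay below the other 3 libraries by more than they differed among themselves.

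Levels of different genes were compared as normalised counts per kilobase of gene length, with the length that the table gives. This length is shorter than the span between the coordinates above. For chga it is 1740 bases against a span of 25791, and for scg3 2367 against 38467. In WT the order was clear. It ran from scg3 at 161698 ± 3482 and scg5 on chromosome 19 at 124222 ± 153 to scg5 on chromosome 20 at 11633 ± 388, scg2b at 6979.6 ± 96.7 and chga at 3759.8 ± 186 (SD, n = 2), and no neighbours overlapped. In Tg(ins:il1b) scg3 at 111788 ± 34430.2 and scg5 on chromosome 19 at 100207 ± 6599.9 overlapped. So did chga at 12099.9 ± 4635 and scg5 on chromosome 20 at 9707 ± 856, while scg2b at 7173 ± 1001 lay below both in each library. Among all tested genes ranked per length, chga was 479th and 499th in WT, against 146th and 248th in Tg(ins:il1b). By the same ranking scg3 was 6th and 9th in WT, against 10th and 25th in Tg(ins:il1b), and scg5 on chromosome 19 was 12th in both WT libraries.

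**Figure D5:**
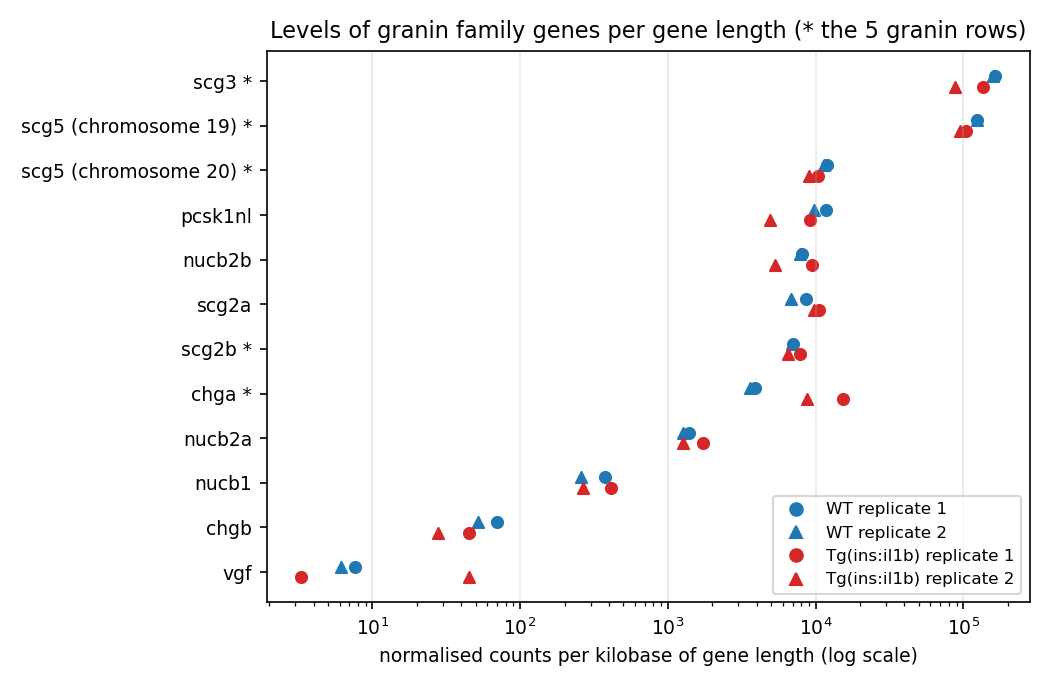
Normalised counts per kilobase of gene length on a log axis for the 5 granin genes (starred) and 7 other granin family and nucleobindin genes. Genes are ordered by the WT mean. Circles are replicate 1, triangles replicate 2, blue WT and red Tg(ins:il1b). chga is the lowest of the 5 in WT, and its Tg(ins:il1b) libraries lie on either side of those of scg2a and of the chromosome 20 copy of scg5.

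The wider granin family, listed here together with the nucleobindin genes nucb1, nucb2a and nucb2b, which are not classical granins, showed no call. Of 7 other genes, namely chgb, scg2a, vgf, pcsk1nl, nucb2a, nucb2b and nucb1, 0 passed limma, edgeR or DESeq2. At an unadjusted limma p under 0.05 there were also 0, and the median log2 fold change was 0.09. Over all genes limma called 1.63%, edgeR 1.28% and DESeq2 6.68%, and 14.4% had such an unadjusted p, so 0 of 7 is no result by itself. Groups did not overlap for 1 higher gene (scg2a) and 2 lower genes (chgb and pcsk1nl), beside 22.3% and 22.1% of all tested genes. The scg2b paralogue scg2a had 13929 and 10955 normalised counts with WT against 17014 and 15708, without overlap and with a log2 fold change of 0.40 (SE 0.21, limma adjusted p = 0.446). The proSAAS gene pcsk1nl, whose product inhibits convertase 1, had 44059 and 36943 in the WT libraries against 34456 and 18633, with a log2 fold change of -0.67 (SE 0.32, limma adjusted p = 0.411). Chromogranin B, a major granin of mammalian granules, was sparse here, with chgb at 193 and 145 in the WT libraries against 126 and 76.9 (limma adjusted p = 0.507). The nesfatin precursor gene nucb2b was between 13547 and 23930.1 in all libraries, with the WT libraries inside the Tg(ins:il1b) range, and vgf was at most 30.3 outside Tg(ins:il1b) replicate 2, which had 177.

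Of 16 tested enzymes of prohormone processing, pcsk2 fell and pcsk6 rose in limma, and the list's median log2 fold change was -0.05. Over all tested genes, limma called 1.1% higher and 0.53% lower. DESeq2 called 2 of the list higher and 2 lower, beside 4.24% and 2.45% of its genes. At an unadjusted limma p under 0.05, 2 were higher and 3 lower, beside 7.95% and 6.45%. DESeq2 also called pcsk5b lower (adjusted p = 0.00026, limma 0.0569) and ero1a higher (0.0468, limma 0.168), both named after their values were seen. The convertase gene pcsk6 rose from 913 and 1220.4 normalised counts in the WT libraries to 3218 and 3861, or by 1.74 in log2 (SE 0.24, limma adjusted p = 0.0287). Convertase 1, the other granule convertase, had 79522 and 85448 in the WT libraries against 83630.1 and 33039.6 (pcsk1, limma adjusted p = 0.573), so only Tg(ins:il1b) replicate 2 was low. Carboxypeptidase E, the partner of secretogranin III, had a ratio of reads to scg3 of 0.565 and 0.401 in the WT libraries against 0.503 and 0.481, with overlapping groups.

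Of 21 tested genes of the granule membrane and its loading, 2 fell and 0 rose in limma or edgeR, and in DESeq2 2 fell and 1 rose. The median log2 fold change was 0.03, and 2 were higher at an unadjusted p under 0.05. Among all genes, limma called 0.53% lower, DESeq2 called 4.24% higher and 2.45% lower, and 7.95% were higher at that unadjusted p. Both that fell act at the granule membrane. The gene slc18a2, for a transporter of monoamines into vesicles, fell from 2933 and 3690.2 normalised counts in the WT libraries to 219 and 268, with a log2 fold change of -3.76 (SE 0.25, limma adjusted p = 0.00699). The gene sytl4, for the docking protein granuphilin, fell from 4743 and 3158 to 221 and 440.3, with a log2 fold change of -3.63 (SE 0.38, limma adjusted p = 0.0183). The study itself named sytl4, ucn3l, pdx1, gcga, gcgb, arxa and mafba from these libraries, so their directions are not independent evidence. ICA512, a membrane protein of the insulin granule, is made by ptprna, which had 7681 to 8614 normalised counts over all libraries and was named after its values were seen. The 2 genes higher at an unadjusted p under 0.05 were ptprnb, by its symbol a second copy, and syt9a, also named after their values were seen. For ptprnb there were 3051 and 2214 in the WT libraries against 3966 and 4446.5 (limma adjusted p = 0.238). For syt9a, which rose in DESeq2, these were 24.8 and 22.2 against 115.2 and 110.1 (limma adjusted p = 0.108, DESeq2 adjusted p = 0.0075).

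Of 20 genes needed to bud and mature dense-core granules, 0 passed limma, edgeR or DESeq2, 1 was higher at an unadjusted p under 0.05 and none lower, and the median log2 fold change was -0.02. The shares of all tested genes at that unadjusted p were 7.95% higher and 6.45% lower. The small GTPase gene rab2a had 17269 and 17176 normalised counts with WT against 17065 and 17778, and its log2 fold change was 0.02 (SE 0.18, limma adjusted p = 0.985). The V-ATPase accessory gene atp6ap2, whose complex acidifies the granule, had 18579 and 20572 in the WT libraries against 17763 and 14789, and its log2 fold change was -0.27 (SE 0.20, limma adjusted p = 0.627).

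Of 17 tested hormone genes, whose products granins are packed with, 3 rose and 0 fell in limma, at a median log2 fold change of 3.86. These were ghrl, gcga and the neuromedin U gene nmu, which rose from 7.3 and 3.9 to 116 and 94 normalised counts, or by 4.05 in log2 (SE 0.67, limma adjusted p = 0.0486, edgeR adjusted p = 0.0519). EdgeR called 2 of the list higher and 0 lower, and DESeq2 called 7 higher and 1, ins, lower. The shares called higher over all genes were 1.1% in limma, 0.903% in edgeR and 4.24% in DESeq2, with 2.45% lower in DESeq2. For nmu, galn (0.9 and 0) and cart3 (0 and 0), both WT libraries were below the filter on low values. They were tested only because both Tg(ins:il1b) libraries reached it, at 16.2 and 47 for galn and 12.1 and 15 for cart3. For ghrl (40.4 and 8.7), sst2 (144.2 and 6.8) and sst3 (15.6 and 0) only 1 WT library reached it. These too needed a Tg(ins:il1b) library to be tested. The median is the value of cart3. Among others, the filter left out insb, at 17.5 and 8.7 against 2 and 1.1. It also left out cart4, at 5.5 and 1 against 8.1 and 11.8. The count and median thus rest partly on genes that entered by high Tg(ins:il1b) values.

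Of 25 tested genes for factors that bind or are known to control granin genes in mammals, 0 passed limma or edgeR and 2 passed DESeq2, both higher, with 3 higher at an unadjusted p under 0.05 and a median log2 fold change of 0.03. The 2 in DESeq2 were the zinc finger genes insm1a and insm1b, named after their values were seen. Among all genes, DESeq2 called 4.24% higher, and 7.95% were higher at an unadjusted limma p under 0.05. The WT libraries had 3201 and 3325.5 normalised counts of insm1a and the Tg(ins:il1b) libraries 5904 and 7106 (limma adjusted p = 0.0783, DESeq2 adjusted p = 0.00347). For insm1b these were 2272 and 2354 against 4058 and 4460.4 (limma adjusted p = 0.0971, DESeq2 adjusted p = 0.0103). The repressor gene rest, which silences granin genes outside endocrine and neural cells, was between 34.4 and 48.1 in all libraries and was also named after its values were seen. The islet factor gene pax6b had 29557 and 30565 in the WT libraries against 19999 and 24519.5 (limma adjusted p = 0.393), and neurod1 had 16132 and 23804 against 29255 and 24563 (limma adjusted p = 0.490).

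The genes most like each member over the 4 libraries were found among 3591 genes with a mean of at least 1000 normalised counts, by the root mean square difference of centred log2 values. For chga they were the calcium-binding protein gene calb1, with 5164 and 5077.5 normalised counts in the WT libraries against 24448 and 10313, the exocytosis regulator gene cplx2 and the sterol sensor gene insig1, at differences of 0.159, 0.191 and 0.221. The other granins differed from chga by 0.821 or more, and among the 3591 genes they ranked from 1120th (scg2b) to 2963rd (scg3) by likeness to it. The copies of scg5 were near each other, at 0.038, where the chromosome 20 copy ranked 14th among the neighbours of the chromosome 19 copy. For scg3 the nearest were got2a, h2afvb and lgi2a, for scg2b rbm39b, fam114a2 and chmp1b, for scg5 on chromosome 19 rmnd5b, clpxa and acp1, and for scg5 on chromosome 20 thrap3b, vps4b and mfn2, all at differences of at most 0.0522.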

How the data were processed

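Sorted β-cell mRNA was sequenced as paired-end reads, which the authors mapped with GSNAP to GRCz10 under Ensembl annotation 87. Read counter, strand setting, tool versions and normalisation tool were not stated. Apart from a common constant, the library factors recovered from the values differ by at most 3.82e-06% from the size factors that DESeq2 computes. The authors deposited 1 signal value per gene and library, the normalised count, which is a read count over a library-wide factor, given to 1 decimal. The deposited table has another column, gene length in bases.

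The value of 1 read was found for each library, and dividing by it left at least 99.99% of values within 0.1 of a whole read. In Tg(ins:il1b) replicate 1 this step, 1.01, shows only over higher values. The 18504 genes that reached 10 normalised counts in 2 or more libraries entered limma (version 3.58.1, R 4.3.3) after log2(value + 1), using its trended prior, with 2 residual degrees of freedom and 0.05 as the threshold for the adjusted p. This scale understates fold changes of low genes. DESeq2 1.42.0 (all genes) and edgeR 4.0.16 ran on whole reads. The code was tested on simulated counts. SE is the limma standard error.

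Of 214 list entries in 14 gene lists 188 were in the table, 9 through the current symbol of the ID. Members and lists were chosen with earlier results of these data known. Named genes were the members, the other granin family and nucleobindin genes, and called genes of each list or else its highest by mean. Also named were pcsk2, ins, gcga, sst1.1, the β-cell markers and the 3 nearest genes of each member. The chi-square per degree of freedom between replicates, 136 for WT and 129 for Tg(ins:il1b), showed that none was deposited in duplicate. Figures were drawn with matplotlib 3.10.9.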

Additional observations from a re-analysis of the deposited data

How the results depend on the processing

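The log2 fold changes of scg3 and both scg5 genes kept their sign and stayed uncalled in 19 of 19 settings. For these genes and chga the groups do not overlap. Their sign could therefore not turn in limma with a library left out. Nor could another pseudocount, filter, variance trend or block turn it. For chga the sign held in 19 of 19 and 9 passed the threshold: DESeq2 (1.69, adjusted p = 3.74e-05), a pseudocount of 10 (1.63, 0.045), a filter at 50 normalised counts (1.63, 0.0485), scaling by total reads (1.79, 0.0464), the replicate number as a block (1.63, 0.0278), and DESeq2 without each library in turn (1.23 to 2.04, with 1.74 and 1.63 without WT replicates 1 and 2). With limma the chga value without each library ran from 1.23 to 2.03 and was never called. Those limma fits called almost no gene, so the missing call says little about chga. For scg2b the sign turned without Tg(ins:il1b) replicate 1, to -0.11 in limma and in DESeq2, while without replicate 2 it was 0.18 in both. In each setting that called chga, 1 granin was called, and otherwise 0.

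Whether libraries of the same replicate number are paired is not known. The labels name no shared animal or batch, and deviations of same-numbered libraries correlated at 0.0334 over genes. Neither can exclude a shared batch. The paper calls the WT fish siblings of the Tg(ins:il1b) fish. The main fit was unpaired, and the replicate number as a block was among the settings that called chga. Total-read scaling moved the median of all genes by 0.16 on the log2 scale.

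Of all genes, 302 were called, against 1245 in DESeq2, 13 in limma without the variance trend, 0 to 1 in limma and 658 to 1224 in DESeq2 without each library (730 without WT replicate 1 and 744 without Tg(ins:il1b) replicate 2). Limma without the trend called 0 of the processing, membrane and hormone lists, and limma without each library called 0 of each, with 1 residual degree of freedom in which the lone library is taken to vary like the other group. Limma tested 16, 17 and 25 genes of the processing, hormone and regulator lists. Of these, DESeq2 called 4 processing enzymes, 8 hormone genes and 2 regulators, beside 6.68% of all its genes. Without each library it called 0 to 2 of the other granin family genes (pcsk1nl lower and vgf higher without Tg(ins:il1b) replicate 1), 2 to 4 processing enzymes, 4 to 13 hormones (9 without WT replicate 1 and 7 without Tg(ins:il1b) replicate 2) and 0 to 1 regulators. Total-read scaling called 1 regulator.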

Other observations

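Of 9 tested neuron markers, some of which endocrine cells share, 3 rose and 0 fell in limma and 4 rose in DESeq2, with summed levels of 18339 to 18371 normalised counts for WT and 18935 to 27278 for Tg(ins:il1b). Over all tested genes, limma called 1.1% higher and 0.53% lower, and DESeq2 called 4.24% higher. Genes of the neuron list are named after their values were seen. The synapsin gene syn2b, whose product coats synaptic vesicles, rose from 3.7 and 1 normalised counts in the WT libraries to 92 and 159 (5.32 in log2, limma adjusted p = 0.0395). Both WT libraries were below the filter on low values for syn2b. It was tested, and so counted among the 3 that rose, only because both Tg(ins:il1b) libraries reached the filter. The microtubule genes map1b and stmn2a rose by 3.28 and 1.79 in log2 (limma adjusted p = 0.0207 and 0.0248). The exocytosis gene snap25b had 2201.5 and 2733 in the WT libraries against 1053 and 1568, and did not pass (limma adjusted p = 0.181).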
